A study of Mus musculus with 15 samples.

Results

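Ileal organoids treated with a mouse-like bile acid pool in which 90% of the bile acids carry the 12α-hydroxyl group (M90) were compared with organoids given vehicle. The comparison uses the raw counts of the 3 M90 libraries and the 3 vehicle libraries, chosen by their titles, which are 6 of the 15 libraries of the series. It covers the 13159 genes of 23420 in the files that passed an expression filter. All groups were primary organoids from ileal crypts of C57BL/6 mice, grown in Matrigel without other cell layers, at passage 2, and kept for 24 h in DMEM with 0.2% bovine serum albumin. Vehicle cultures had no bile acid pool. The other 3 groups received a mouse-like pool with 10% 12α-hydroxylated bile acids (M10) or human-like pools with 90% (H90) or 10% (H10), with 3 libraries each. They show where M90 differs, and their libraries also enter the expression filter and the estimate of spread behind every test. The labels give neither the dose nor the composition of the pools, and give no age or sex of the animals and leave unsaid if replicate libraries stem from different animals or wells, so p-values measure the spread between these libraries only. Crypt cultures lack the blood vessels, nerves and microbes of ileum, which limits them as a model. In such bulk samples a change in the share of a cell type and a change in RNA per cell cannot be told apart.

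Bile acids are detergents that emulsify dietary fat, and the ileum takes nearly all of them back. Ileal enterocytes import them through Slc10a2, carry them on Fabp6 and export them through Slc51a and Slc51b. Inside the cell they bind nuclear receptors, of which FXR (Nr1h4) induces Nr0b2 and the hormone Fgf15, and VDR and PXR induce genes of calcium handling and detoxification. PPARα (Ppara) is a related receptor for fatty acids that induces their oxidation. Intestinal epithelium renews itself from crypt stem cells, whose daughters divide a few times and then mature into absorptive enterocytes or into the secretory goblet, Paneth, enteroendocrine and tuft cells.

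Totals of the 6 libraries ran from 15712320 to 27136476 counts, so that 3 counts in the shallowest correspond to 0.175 CPM (counts per 1000000 on TMM-scaled totals, the unit of all levels below). The organoids expressed the defining markers of intestinal epithelium: Epcam had 1538, 1548 and 1617 CPM in vehicle and 1587, 1521 and 1490.1 CPM in M90, and Cdh1 had 1235, 1237 and 1178 CPM in vehicle and 1274, 1218 and 1209 CPM in M90. Of 14 tested markers of this list, 6 rose and 5 fell, with a median log2 change of 0.0090, and with library size scaling 4 rose and 8 fell. Markers of other cell types were low: the summed level of 16 mesenchymal markers was 10.1 to 13.2 CPM in vehicle and 20.4 to 25.5 CPM in M90, that of 18 immune markers 9.36 to 9.67 and 9.44 to 10.4 CPM. In the immune list 10 markers, among them Cd3e and Cd4, had 0 counts in all 6 libraries. The summed level of 9 endothelial markers was 22.2 to 25.0 CPM in vehicle and 10.95 to 12.0 CPM in M90, and that of 10 markers of neurons and glia 17.4 to 21.4 and 36.6 to 43.6 CPM. The part of these cells in the results was not tested. Transcripts of other tissues also divide the series across its groups. Mup20, a liver-made urinary protein, was above 10 CPM on unscaled totals in vehicle, H10 and H90 a (set 1) and below it in M10, M90 and H90 b and c (set 2), and Col1a1, a fibroblast collagen, had 0, 0.0683 and 0 CPM in vehicle and 7.13, 3.82 and 7.78 CPM in M90. Markers of liver and serum proteins fell in 20 of 26 cases and rose in 2, with a summed level of 1437 to 1581 CPM in vehicle and 618 to 653 CPM in M90. M90 and vehicle lie wholly in different sets, so pool and set cannot be told apart from these 6 libraries. The only estimate that separates them is a model with a term for set, which rests on the 3 H90 libraries. Of these only H90 a lies in set 1, so the term leans on that library. H90 a also stood out in Rn45s, a ribosomal RNA, with 14142.5 CPM on unscaled totals against 3116 and 3215 in H90 b and c. What this adds to the estimate was not tested. In the model with this term 2 of the liver and serum markers fell and 1 rose, with a median of 0.026. It is called the set model below, and it is given beside a gene's change against vehicle described below where it ends the call or moves the log2 change by over 1.5 times, and beside a list where it moves the rises or the falls by over 1.5 times and more than 1 gene.

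M90 changed the level of 7199 genes, 54.7% of those tested (edgeR quasi-likelihood test, Benjamini-Hochberg adjusted p under 0.05). Of these, 3451 were higher (26.2%) and 3748 lower (28.5%), and 1837 differed at least 2-fold, 805 upwards and 1032 downwards. Rises of 8-fold or more were made by 74 genes and falls of that size by 61. Among genes that averaged 5 CPM or more in these 6 libraries, with groups that do not overlap and unnamed predicted genes and markers of other tissues left aside, the largest rises were in bile acid and lipid genes: Fabp6 rose 188-fold, Cyp4a10, a fatty acid hydroxylase, 64.4-fold, and Fgf15 59.7-fold. Pdk4, the kinase that turns off pyruvate dehydrogenase, rose 36.0-fold, and Acacb, an acetyl-CoA carboxylase that forms malonyl-CoA at mitochondria, 34.4-fold. Further genes among the 15 largest rises so ranked were Plb1, a brush border phospholipase, with a log2 change of 4.49, Fam151a with 4.17, Zdhhc19, a palmitoyltransferase, with 3.98, Adh4, an alcohol dehydrogenase, with 3.85, Mfsd7c, a membrane transporter, with 3.75, and Trpm6, a magnesium channel, with 3.69. Under the same limits, the largest falls were mostly in genes of crypt cells and cell division. Mup20 and the acute-phase genes Saa1 and Saa2, in the liver and serum list left aside, fell by 5.48, 4.90 and 6.81, and the set model kept none of these 3 calls (adjusted p = 0.351, 0.591 and 0.916). Olfm4, a secreted protein of crypt stem cells, fell 145-fold and Slc6a14, an amino acid transporter, 44.6-fold. Myb, a transcription factor of crypt progenitors, had a log2 change of -3.40, and the chromatin and repair factors Hells, Fanci and Fignl1 had -3.20, -3.18 and -3.32. Ppat, the first enzyme of purine synthesis, had -3.24 and Slfn9 -3.93. In the set model 3958 genes passed, 2011 as higher and 1947 as lower. Of these, 3802 were among the 7199, each in the same direction as above. Calls that a list loses in the set model are to be read beside this general loss. Scaled by library size alone the share of higher genes among those called was 31.9%, against 47.9% here, and the median log2 change of all tested genes was -0.17, against -0.022, so small changes depend on the scaling.

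**Figure D1:**
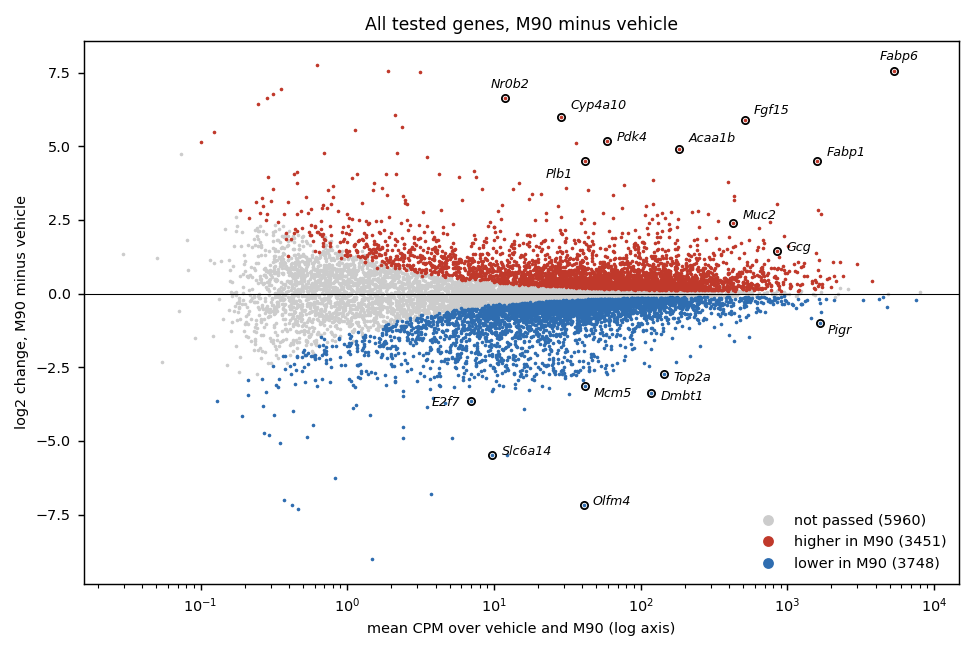
Log2 change of each of the 13159 tested genes in M90 minus vehicle (y axis) against its mean CPM over both groups (x axis, log scale). Red points passed as higher, blue as lower and grey did not pass; rings mark named genes, with Fabp6 highest at the right and Olfm4 lowest.

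Genes that move and sense bile acids held 3 of the 4 largest rises in that ranking of genes with a mean of at least 5 CPM. Of 10 tested transport and binding genes 5 rose and 3 fell, 4 and 1 in the set model. Fabp6, the ileal bile acid binding protein (chr11:43596040-43601562, GRCm38), had 61.7, 46.1 and 62.4 CPM in vehicle and 10703, 10612 and 10457 CPM in M90. All 3 M90 libraries lay within a narrow range far above vehicle, and the log2 change was 7.55 ± 0.13 (± SE, adjusted p = 3.80e-13). Slc51a, the α subunit of the basolateral exporter (chr16:32475578-32487879), had 184, 189 and 180.1 CPM in vehicle and 1546, 1455 and 1540.0 CPM in M90. Slc51b, its β subunit (chr9:65412753-65422773), had 50.04, 53.7 and 54.7 CPM in vehicle and 752, 721 and 739.8 CPM in M90. Both subunits rose, by 3.04 ± 0.048 and 3.80 ± 0.056 on the log2 scale, and the groups did not overlap. Abcc2, an apical export pump for conjugates, rose from 386 ± 19.98 to 840.2 ± 16.6 CPM (mean ± SD, n = 3). Slc10a2, the apical importer, had 56.2, 71.2 and 57.0 CPM in vehicle and 50.1, 41.0 and 42.9 CPM in M90, a small fall of 0.47 on the log2 scale (adjusted p = 0.0112) that the set model did not keep (-0.47, adjusted p = 0.227). Abcc3, a basolateral pump, had a log2 change of 0.24 that was lost there too (adjusted p = 0.399) and with library size scaling (0.111). Slco2b1, an organic anion transporter, fell by 1.44.

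The receptor itself moved little and its best known targets rose. Nr1h4, which encodes FXR, rose from 120.5 ± 3.82 to 165 ± 7.53 CPM, and its partner Rxra fell by 0.31 on the log2 scale. Nr0b2 (SHP), a repressor induced by FXR (chr4:133553376-133556686), had 0.641, 0 and 0.215 CPM in vehicle and 23.6, 23.9 and 23.5 CPM in M90. Vehicle was at or near 0 and every M90 library near 24 CPM, with a fitted log2 change of 6.63 ± 0.36 (adjusted p = 2.45e-14). Fgf15, the ileal hormone that tells the liver to make less bile acid (chr7:144896532-144900953), had 14.4, 17.0 and 18.9 CPM in vehicle and 1064, 958 and 1013 CPM in M90, a log2 change of 5.90 ± 0.092. Nr5a2, a receptor that Nr0b2 represses, fell by 0.67. Of 14 tested FXR signalling genes 5 rose and 5 fell, 4 and 3 in the set model, and 3 and 7 when libraries were scaled by size alone. Of 18 other FXR targets 11 rose, 10 in the set model, and 2 fell, with a median log2 change of 1.21 against -0.022 for all tested genes. Among them Akr1b7, an aldo-keto reductase, had 6.41, 8.44 and 6.06 CPM in vehicle and 78.6, 81.3 and 81.6 CPM in M90. Nos2, the inducible nitric oxide synthase, had 97.3, 121 and 87.0 CPM in vehicle and 653, 554 and 503 CPM in M90. Slc30a10, a manganese exporter in the list of vitamin D receptor targets below, had 15.1, 18.1 and 13.1 CPM in vehicle and 62.9, 57.1 and 44.1 CPM in M90. All 3 rose and none of their ranges overlapped with vehicle, and Car12, a carbonic anhydrase, and Apoc2, an apolipoprotein, rose by 2.41 and 2.52. The 2 members that fell, Kng1 (-1.28) and C3 (-0.56), both made in quantity by liver, did not pass in the set model (log2 0.22 and 0.24, adjusted p = 0.811 and 0.616). Without vehicle a or b or M90 a or b, C3 had adjusted p from 0.0680 to 0.136. Of 13 bile acid synthesis genes 4 rose and 3 fell, near the 26.2% and 28.5% of all tested genes. In the set model 2 passed, both as rises. Scp2, a sterol carrier thiolase, rose by 1.33 and Cyp27a1, a sterol hydroxylase, went from 2.55 ± 0.333 to 7.70 ± 1.11 CPM.

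The promoter of Fabp6 is shown because this gene came first in that ranking of rises. FXR with RXR binds an inverted repeat of AGGTCA half-sites spaced by 1 base (IR-1), and PPARα with RXR a direct repeat with the same spacing (DR-1). RefSeq promoters (GRCm38.p6, 1 for each of 9799 tested genes) were searched on both strands, allowing 2 mismatches in the 12 fixed bases of each motif. The same bases can match both motifs. IR-1 was found in 0.949% of these promoters and in 2 of 9 of the bile acid transport list, Fabp6 and Abcb11. It was in 2 of 25 of the PPARα list, Acaa1b and Acot12, and in 0 of 12 of FXR signalling and 0 of 13 of other FXR targets. The 250 bases before the Fabp6 start (chr11:43601563-43601812, minus strand) hold a match in capitals, with 2 mismatches, 222 to 210 bases before the start. A further match with 2 mismatches, aggtgaataacct, lies nearer the start and is left in small letters. Of equal matches the one farthest from the start was put in capitals.
Fabp6: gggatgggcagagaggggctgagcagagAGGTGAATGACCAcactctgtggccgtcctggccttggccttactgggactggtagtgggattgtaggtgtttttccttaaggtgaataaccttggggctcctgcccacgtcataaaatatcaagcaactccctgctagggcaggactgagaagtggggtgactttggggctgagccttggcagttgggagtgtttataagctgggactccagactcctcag
A match describes these letters and says nothing of binding in these cells.

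**Figure D2:**
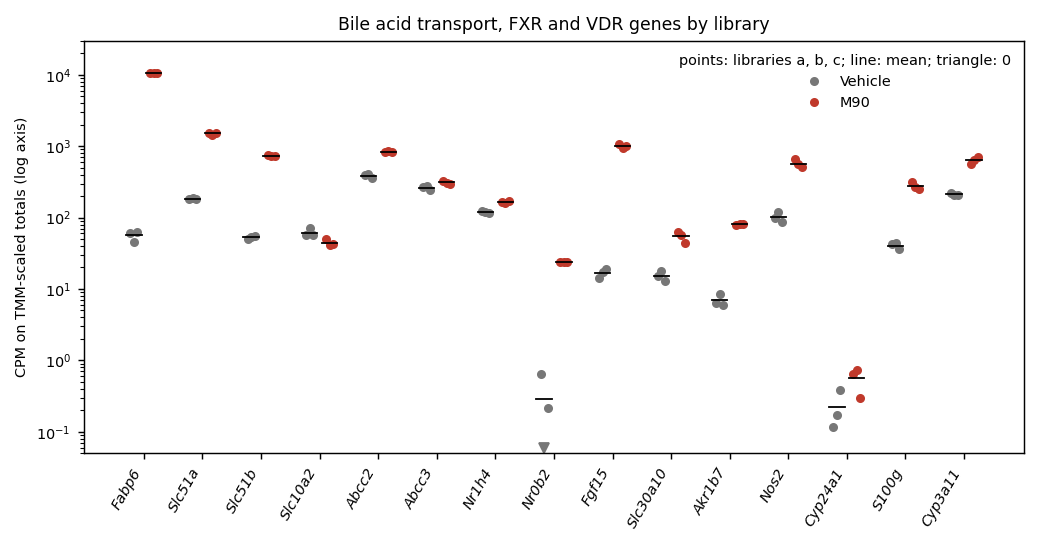
CPM on TMM-scaled totals (log axis) of 15 genes in the 3 vehicle (grey) and 3 M90 (red) libraries; points are libraries, lines group means, and the triangle marks a library with 0 counts. Fabp6, Slc51a, Slc51b, Nr0b2 and Fgf15 are far higher in every M90 library, while Slc10a2 and Cyp24a1 differ little.

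Vitamin D receptor targets rose in part. Of 13 tested 10 rose and 2 fell (median log2 0.79), and in the set model 8 rose and 1 fell. S100g, the calcium carrier calbindin-D9k, had 42.0, 43.4 and 36.5 CPM in vehicle and 317, 269 and 255 CPM in M90, a log2 change of 2.78 ± 0.12. Cyp3a11, a hydroxylase of drugs and bile acids, had 224, 206 and 210.1 CPM in vehicle and 570.4, 648 and 699.9 CPM in M90. Both rose without overlap, and Cyp3a25 rose by 1.60. Cyp24a1, the vitamin D 24-hydroxylase which VDR induces in many tissues, had 0.117, 0.171 and 0.387 CPM in vehicle and 0.653, 0.738 and 0.299 CPM in M90. These levels are close to that of 3 counts, the ranges overlap, and the log2 change of 1.26 (adjusted p = 0.0147) did not pass in the set model (adjusted p = 0.681), in limma-voom (adjusted p = 0.266), or without vehicle a or b or M90 a or b (adjusted p from 0.0537 to 0.0998). Vdr rose from 700.1 ± 29.8 to 1001 ± 8.16 CPM, and Cldn2, a cation-pore claudin, fell by 0.82. Genes of xenobiotic metabolism rose broadly, 27 of 34 with 2 falling and a median of 0.89. Gstm3 and Gstm1, glutathione transferases, rose by 2.72 and 1.96, Ces1g, a lipid-cleaving carboxylesterase, by 2.67, Por, the electron donor of cytochromes P450, by 1.72, and Sult1d1, a sulfotransferase, by 1.21. Against the list, Cyp2b10 and Cyp2c29 fell by 0.86 and 0.77. Gstm, Ces1 and Cyp2c genes belong to families of near-identical copies, and it is not known how the counting split their shared reads. Abcb1a, an apical drug pump, rose by 0.79. Of 19 retinoid genes 12 rose and 1 fell: Isx, a homeobox repressor of carotenoid uptake, went from 3.06 ± 1.11 to 33.3 ± 6.90 CPM, Retsat, retinol saturase, rose by 2.27, Bco2, a carotenoid-cleaving enzyme, by 2.16, and Rbp2, the enterocyte retinol carrier, by 1.91.

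PPARα targets rose almost as a whole. Of 30 tested members 27 rose and 1 fell, with a median log2 change of 2.2, and the set model called 26 higher with a median of 2.07. Ppara itself had 110.2, 105 and 103 CPM in vehicle and 199, 210.4 and 228 CPM in M90, a rise of 1.0. Cyp4a10 (chr4:115518287-115533649) had 0.699, 0.786 and 1.12 CPM in vehicle and 42.3, 59.6 and 68.0 CPM in M90, which is 6.01 ± 0.28 on the log2 scale (adjusted p = 1.37e-13). Acaa1b, a peroxisomal thiolase (chr9:119148043-119157093), had 10.4, 12.3 and 12.7 CPM in vehicle and 320.0, 369 and 380.3 CPM in M90. Both genes rose in all 3 M90 libraries with no overlap. Fabp1, the liver-type fatty acid binding protein (chr6:71199879-71205034), had 121, 149.9 and 134 CPM in vehicle and 2542, 3297 and 3358 CPM in M90, and Fabp2, the intestinal type, had 371, 385 and 439.7 CPM in vehicle and 2451, 2959 and 3115 CPM in M90. Both carriers rose, by 4.50 ± 0.15 and 2.83 ± 0.10. Creb3l3, a transcription factor of lipid handling, rose by 2.71, Vnn1, a pantetheinase, by 2.39, Cidec, a lipid droplet protein, by 2.07, and Acot4, an acyl-CoA thioesterase, by 1.83. The near-identical thioesterases Acot3 and Acot5 went from 0.0143 and 0.0573 CPM to 3.81 and 4.203 CPM. Ppard, which encodes the related receptor PPARδ, was the 1 member that fell (-0.20), a call the set model did not keep (adjusted p = 0.640).

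Fabp1 is shown because it is one of 2 promoters of 25 in the PPARα list with a DR-1 match at 1 mismatch. Matches with up to 2 mismatches were in 6 of these 25 promoters and in 3.24% of the 9799. Those with 1 mismatch were in 0.418% of the 9799, 41 in all. In the 250 bases before its start (chr6:71199629-71199878, plus strand) the match, in capitals, lies 67 to 55 bases before the start. The matches of Acot12, Creb3l3 and Acot4 in the same list and of Apoc2 are given below it, each 5′ to 3′ on the strand of the gene, with all 13 bases of the match in capitals. They lie at chr13:91741411-91741423, chr10:81092788-81092800, chr12:84038366-84038378 and chr7:19678051-19678063. Creb3l3 spans chr10:81084329-81098872 and Acot4 chr12:84037254-84044723, so the promoters used for these 2 belong to start sites inside the gene.
Fabp1: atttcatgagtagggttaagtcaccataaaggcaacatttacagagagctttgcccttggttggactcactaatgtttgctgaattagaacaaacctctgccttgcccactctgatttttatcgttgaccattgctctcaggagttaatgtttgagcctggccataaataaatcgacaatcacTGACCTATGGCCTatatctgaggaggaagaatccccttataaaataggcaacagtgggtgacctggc
Acot12: TGACCTCTCACCT
Creb3l3: AGGGGAGAGGTCA
Acot4: TGACCTTTGGCCG
Apoc2: AGGCCAGAGGTCA
In Fabp1, Acot12 and Acot4 the repeat lies on the opposite strand and is read here in reverse, from TGACCT, while in Creb3l3 and Apoc2 it lies in the direction of the gene and ends in AGGTCA.

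Genes of both compartments that oxidise fatty acids rose. Of 27 mitochondrial oxidation genes 25 rose (median 0.84), and of 31 peroxisomal genes 25 rose and 1 fell (median 0.85). In mitochondria, Cpt1a, the gatekeeper that makes acylcarnitines, had 320.2, 299 and 314 CPM in vehicle and 507, 543 and 543 CPM in M90. Slc25a20, which carries acylcarnitines inwards, had 119, 126 and 125 CPM in vehicle and 399, 434 and 465 CPM in M90, and Hadha, which carries out later steps, rose by 1.24. Cpt1a rose by 0.77 ± 0.047 and Slc25a20 by 1.81 ± 0.057, with no overlap between groups. Slc22a5, the carnitine importer, rose by 1.53, Acadvl, which opens the cycle for long chains, by 1.31, and Acaa2, a thiolase that closes it, by 1.35. In peroxisomes, Ehhadh, the bifunctional enzyme, rose by 1.87, Hsd17b4, the other bifunctional enzyme, by 1.72, Abcd3, an importer, by 1.56, and catalase (Cat) by 1.0. Pex7, an import receptor, fell by 0.33. Ketone genes split. Of 10 tested 2 rose and 5 fell, 1 and 4 in the set model. The falls include the ketone-using enzymes Oxct1 (-0.50), Acat1 (-0.72) and Aacs (-0.83).

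Lipid absorption genes rose in 30 of 32 cases (median 1.01), and the set model called 25 higher. Apoa4, a chylomicron apolipoprotein, had 169.6, 180.4 and 153 CPM in vehicle and 554, 684 and 647 CPM in M90. Apoa1 had 1402, 1569 and 1497 CPM in vehicle and 3116, 3266 and 2940.4 CPM in M90, and Mttp, the lipid transfer protein of chylomicron assembly, had 992, 1098 and 1001 CPM in vehicle and 2205, 2319 and 2267 CPM in M90. All 3 rose with no overlap, by 1.91 ± 0.076, 1.06 ± 0.064 and 1.14 ± 0.041. Lpin2, a phosphatidate phosphatase, and Dgat1, which completes triglycerides, rose by 1.49 and 0.78. Sterol synthesis moved by small amounts: of 26 genes 15 rose and 8 fell, but the set model called 7 and 3. Insig1, which holds back sterol synthesis when sterol is plentiful, rose by 0.57, Hmgcs1, an early enzyme, by 0.37, and Cyp51, a later one, by 0.37. Of 15 LXR targets 6 rose and 4 fell, 5 and 2 in the set model: Lpcat3, a phospholipid-remodelling enzyme, rose by 1.15, while Abca1, the classical target, did not pass (0.099, 95% interval -0.14 to 0.34). Fatty acid synthesis went both ways, 7 of 19 up and 8 down, 4 and 8 in the set model. Scd1, a desaturase, and Me1, malic enzyme, rose by 1.46 and 2.23. Fads1 and Fads2, which desaturate polyunsaturated fatty acids, fell. Fads1 had 53.02, 55.4 and 61.1 CPM in vehicle and 11.5, 8.90 and 12.0 CPM in M90. Fads2 had 188, 175 and 195 CPM in vehicle and 49.5, 50.8 and 49.8 CPM in M90. The log2 changes were -2.39 ± 0.13 and -1.90 ± 0.069, and no ranges overlapped.

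Cell division genes fell as a body. All 41 of 41 tested DNA replication genes and all 47 of 47 mitosis genes were lower in M90, against a background of 28.5%, with median log2 changes of -2.04 and -2.48, and the set model called 38 and 45 of them. Mki67, an antigen of dividing cells, had 292, 296 and 280.3 CPM in vehicle and 50.1, 61.4 and 61.6 CPM in M90. Top2a, the topoisomerase of dividing cells, had 259, 243 and 253 CPM in vehicle and 38.5, 37.9 and 38.9 CPM in M90. Mcm5, part of the replicative helicase, had 78.5, 67.6 and 77.9 CPM in vehicle and 6.93, 9.95 and 8.43 CPM in M90. In each gene all M90 libraries lay far below all vehicle libraries, with log2 changes of -2.32 ± 0.16, -2.71 ± 0.077 and -3.14 ± 0.14. Other members that fell were Mcm3 (-2.76), the polymerase subunit Pola1 (-3.14), the ribonucleotide reductase subunits Rrm1 and Rrm2 (-2.58 and -2.70), the maintenance methyltransferase Dnmt1 (-2.34), the condensin subunit Smc2 (-2.94), separase, Espl1 (-2.92), and the checkpoint kinases Bub1 and Bub1b (-2.73 and -2.75). Of 38 cell cycle control genes 25 fell and 6 rose. E2f7 and E2f8, repressors that peak in S phase, fell by 3.64 and 2.72, Cdk4 by 1.34 and Ccnd2 by 2.13. Those that rose included Cdkn1a, the cell cycle inhibitor p21, which had 333, 387 and 343 CPM in vehicle and 767, 648 and 546 CPM in M90, and Rb1 and Mxd1, which restrain the cycle, by 0.39 and 0.84 (Mxd1 by 0.43 in the set model), but also Cdc25a, a phosphatase that drives it, by 0.94. Myc had 53.2, 52.3 and 57.8 CPM in vehicle and 19.6, 22.4 and 26.5 CPM in M90, a fall of 1.25. Of 23 p53 targets 7 were higher and 5 lower, near the 26.2% and 28.5% of all tested genes. The counts were 6 and 1 in the set model and 5 and 8 with library size scaling.

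**Figure D3:**
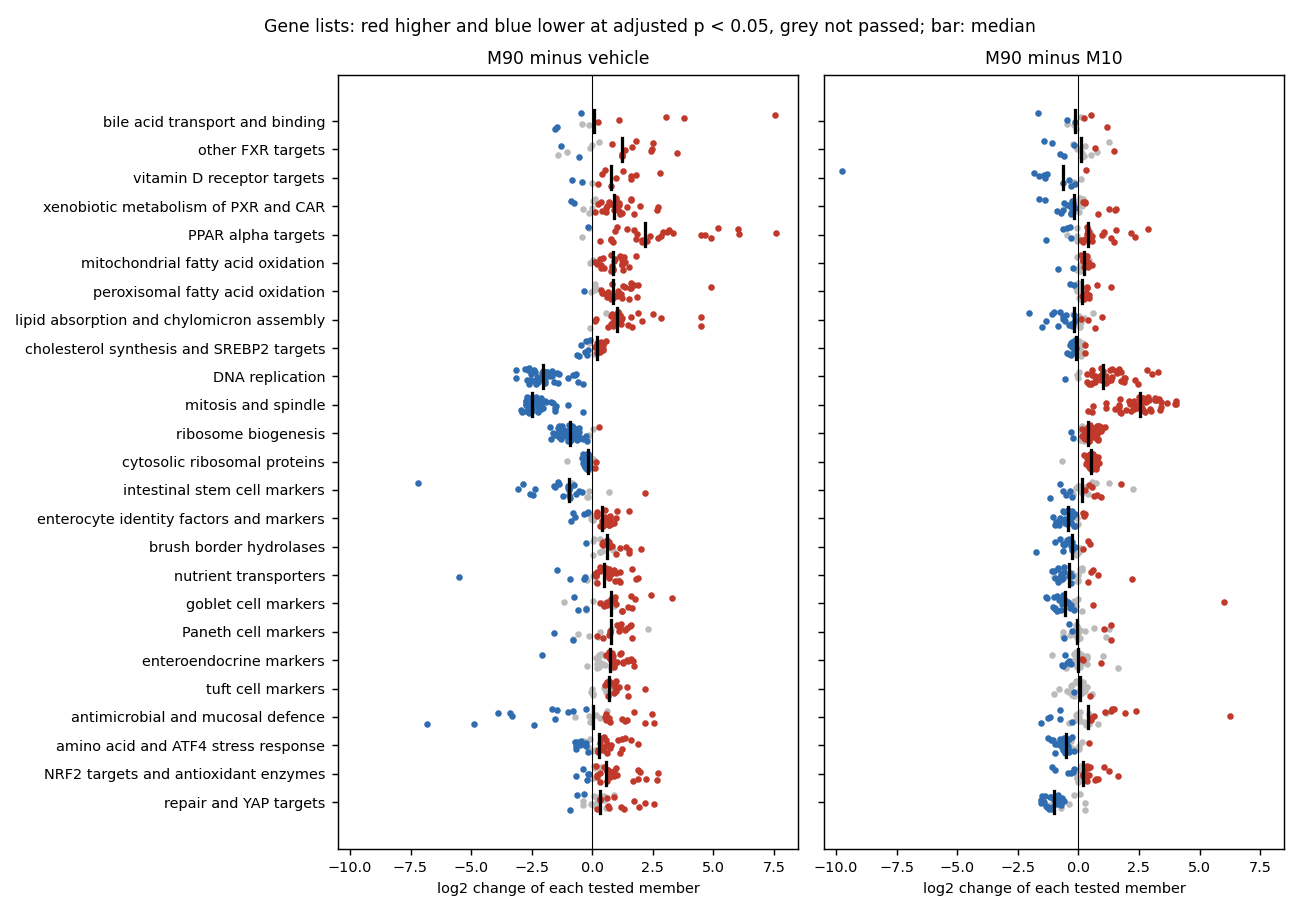
Log2 change of every tested member of 25 gene lists (points; red higher, blue lower, grey not passed) with the list median (black bar), in M90 minus vehicle (left) and M90 minus M10 (right). DNA replication and mitosis genes lie wholly left of 0 on the left and almost wholly right of it on the right.

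The machinery for making ribosomes fell with them. Of 54 ribosome biogenesis genes 50 fell and 1 rose (median -0.91), among them the nucleolar proteins Npm1 (-0.89) and Ncl (-0.95), the pseudouridine synthase Dkc1 (-1.76) and the RNA polymerase I subunit Polr1b (-1.54). The 1 that rose, Nop10 (0.27), did not pass in the set model (adjusted p = 0.526), with library size scaling (0.218) or without vehicle a (0.0801). Ribosomal protein genes fell less, 41 of 55 with 2 higher and a median of -0.18, against 35 lower in the set model, a size close to the shift between scalings. Chaperones of folding fell as well, 10 of 19 with 1 rising: Hspd1 and Hsph1 fell by 1.03 and 0.96, and Dnajb4 rose by 0.78.

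Stem cell markers fell in 21 of 27 cases with 1 rising (median -0.96). Olfm4 (chr14:80000302-80023141) had 78.5, 78.4 and 87.4 CPM in vehicle and 0.502, 0.782 and 0.385 CPM in M90. No M90 library reached 1 CPM, and the log2 change was -7.18 ± 0.24 (adjusted p = 1.86e-20). Lgr5, the classical stem cell receptor, had 6.70, 8.44 and 8.08 CPM in vehicle and 2.76, 3.13 and 2.87 CPM in M90, a fall of 1.41 that the set model did not keep (adjusted p = 0.0610). Axin2, a Wnt target, fell by 2.85, Slc12a2, a chloride importer of crypt cells, by 2.36, Aqp4, a water channel, by 2.55, Ephb2, which sorts cells along the crypt, by 1.54, and Smoc2 by 1.37. In the Notch list 11 of 20 fell and 3 rose, 6 and 2 in the set model. Notch1, its targets Nrarp and Hes1, and Sox4 fell by 1.61, 2.72, 1.13 and 2.01. Atoh1, which commits cells to the secretory fate, and Spdef, which acts after it in goblet cells, rose from 7.46 ± 0.0566 to 13.9 ± 0.762 CPM and from 8.88 ± 1.20 to 16.8 ± 2.20 CPM.

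Genes of absorptive cells moved upwards more often than downwards. Of 33 enterocyte genes 21 rose and 6 fell, of 23 brush border hydrolases 14 rose and 1 fell. Of 33 nutrient transporters 24 rose and 5 fell, and of 20 villus tip genes 12 rose and 1 fell. Their medians were 0.38, 0.61, 0.49 and 0.47. Transporters lost most in the set model, which called 14 higher and 2 lower. Alpi, intestinal alkaline phosphatase, had 197, 205 and 198 CPM in vehicle and 584, 592 and 544 CPM in M90. Krt20, a keratin of mature cells, had 729, 742 and 726 CPM in vehicle and 1471, 1486 and 1485 CPM in M90, and Vil1, villin, had 1575, 1665 and 1529 CPM in vehicle and 2321, 2305 and 2188 CPM in M90. These genes rose by 1.52, 1.02 and 0.51, without overlap. Ggt1, γ-glutamyltransferase, and Naaladl1, a peptidase, rose by 2.01 and 1.37. Lct, lactase, did not pass (0.32, 95% interval -0.061 to 0.70). Among transporters Slc6a20a, for proline, rose by 1.14, Slc26a3, the chloride-bicarbonate exchanger, by 1.13, and Slc7a11, the cystine importer, by 1.91. Against their lists, the regional factors Cdx1 and Cdx2 fell by 0.80 and 0.32, Klf5, a factor of dividing crypt cells, by 0.70, and Enpep, a peptidase, by 0.27. Of 22 genes of chloride secretion and sodium absorption 14 rose and 6 fell, 6 and 5 in the set model. Cftr, the apical chloride channel, had 111, 108 and 103 CPM in vehicle and 17.2, 20.9 and 21.4 CPM in M90, a fall of 2.43. The potassium channel genes Kcne3, Kcnn4 and Kcnq1, which support secretion from the other face of the cell, fell by 3.27, 2.65 and 1.35.

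All 4 secretory lineages showed more genes up than down. Of 27 goblet genes 18 rose and 3 fell (median 0.76). Muc2, the gel-forming mucin, had 121, 136 and 149 CPM in vehicle and 666, 759.7 and 741 CPM in M90. Zg16, a lectin of mucus, had 72.3, 81.3 and 85.6 CPM in vehicle and 751, 820.2 and 799 CPM in M90, and Tff3 rose by 1.62. M90 was above vehicle in every library of both genes, by 2.41 ± 0.090 and 3.31 ± 0.063. Foxa1 and Scin fell by 0.59 and 0.28. Of 35 enteroendocrine genes 20 rose and 1 fell (median 0.72). Gcg, the precursor of GLP-1, had 512, 444 and 431 CPM in vehicle and 1195, 1278 and 1271 CPM in M90. Cck, cholecystokinin, had 105, 108 and 106 CPM in vehicle and 306, 330.0 and 338 CPM in M90. Both hormones rose, by 1.43 ± 0.053 and 1.61 ± 0.050, with Sct, secretin, by 1.68, Reg4 by 1.73 and Chga, chromogranin A, by 0.71. Neurog3, which starts the lineage, went from 2.78 ± 0.225 to 0.664 ± 0.113 CPM, a fall the set model did not keep (adjusted p = 0.0889). Of 24 Paneth genes 15 rose and 2 fell, 7 and 3 in the set model. Their list had a summed level of 1304 to 1415 CPM in vehicle and 1311 to 1430 CPM in M90, with no clear shift. It holds several Defa genes, near-identical copies, and it is not known how the counting split their shared reads. Lyz1, lysozyme, had 34.3, 40.4 and 54.9 CPM in vehicle and 90.5, 115 and 94.8 CPM in M90. Sox9 fell by 1.58, and Reg3g of the same list, described below, fell too. Of 25 tuft genes 16 rose, 9 in the set model. Trpm5, the taste-type channel, had 22.4, 21.7 and 21.2 CPM in vehicle and 38.1, 45.04 and 46.3 CPM in M90, and Spib rose by 0.90. Dclk1 had 34.3, 36.4 and 30.7 CPM in vehicle and 55.4, 55.4 and 54.2 CPM in M90, and its rise of 0.70 did not pass in the set model (adjusted p = 0.0650). The shares of these cells were not measured.

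Mucosal defence genes split evenly, 12 of 30 higher and 12 lower, or 11 and 13 with library size scaling. Dmbt1, a scavenger protein of mucus, had 222, 199 and 227 CPM in vehicle and 18.2, 22.2 and 21.7 CPM in M90. Pigr, which carries IgA to the lumen, had 2279.8, 2203 and 2218 CPM in vehicle and 1113, 1124 and 1129 CPM in M90, and Reg3g, an antimicrobial lectin, had 646, 638 and 685 CPM in vehicle and 354, 402 and 390.2 CPM in M90. These genes fell, with log2 changes of -3.38 ± 0.098, -0.99 ± 0.038 and -0.78 ± 0.048 and no overlap. Higher were Nos2, given above, Sprr1a, a cornified envelope protein, by 2.18, Tgm2, tissue transglutaminase, by 1.44, and Il18, an epithelial cytokine, by 1.22. In the interferon and MHC class I list 17 of 41 rose and 2 fell. H2-K1, a class I heavy chain, had 459, 497 and 483 CPM in vehicle and 839, 830.2 and 791 CPM in M90, and H2-Q1, a non-classical one, had 5.71, 6.56 and 6.23 CPM in vehicle and 49.4, 47.0 and 50.2 CPM in M90. Both rose, by 0.77 and 2.97. The near-identical H2-Q2 rose by 1.59 and H2-T3, a further member of the list, by 0.97, and Irf8 fell by 0.91.

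Stress lists moved in part. Of 37 NRF2 targets and antioxidant genes 25 rose and 5 fell (median 0.56), 23 and 3 in the set model. Akr1b8 rose by 2.68, Ephx1, epoxide hydrolase, by 1.89, and Sod1 by 0.83, but Nqo1, the standard reporter of the pathway, did not pass (0.16, 95% interval -0.100 to 0.41), and Gpx1 and Txn1 fell by 0.66 and 0.40. Of 36 ATF4 response genes 20 rose and 10 fell, 15 and 7 in the set model. Atf4 had 355, 363 and 363 CPM in vehicle and 522, 498 and 498 CPM in M90. Ddit3 (CHOP), which it induces, had 12.7, 13.9 and 15.6 CPM in vehicle and 35.0, 33.4 and 31.8 CPM in M90, and Chac1, which degrades glutathione, rose by 1.58. In the same list Phgdh and Shmt2, of serine and glycine synthesis, fell by 0.71 and 0.61. Hspa5, the main chaperone of the endoplasmic reticulum, did not pass (0.022, 95% interval -0.060 to 0.10). Of 39 genes of the unfolded protein response 13 rose and 8 fell, against 26.2% and 28.5% of all tested genes. Here the set model called 7 and 5, and library size scaling 6 and 14. Of 14 EGF receptor ligands and receptors 7 rose and 3 fell, 6 and 1 in the set model. The ligand Areg, amphiregulin, had 53.9, 60.01 and 53.4 CPM in vehicle and 232, 202 and 207 CPM in M90, and Ereg, epiregulin, rose by 1.20. Of 32 immediate early and feedback genes 16 rose and 7 fell, 9 and 6 in the set model. Fosl1 and Atf3 rose by 2.27 and 1.34 (Atf3 by 0.83 in the set model), while Etv4 and Etv5 and the feedback inhibitor Spred1 fell by 1.91, 1.45 and 1.5. In the list of repair and YAP targets 14 of 29 rose and 3 fell, 8 and 3 in the set model, with Clu, clusterin, and Plaur, the urokinase receptor, up by 1.71 and 1.30.

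M90 was then set against each other pool directly. These contrasts do not use the vehicle means, though vehicle libraries enter the shared estimate of spread. M90 and M10 lie in the same library set but differ in their lowest counts. Genes with exactly 1 count numbered 603, 466 and 542 in the M90 libraries. They numbered 246, 241 and 213 in M10 and 297, 261 and 221 in H90. The reason was not tested, and it bears on genes near 0 in the contrasts with M10 and H90. Against M10, the mouse-like pool with less 12α-hydroxylation, 2799 genes were higher (21.3%) and 2629 lower (20.0%), 809 of them by 2-fold or more. Scaled by library size alone, 69.7% of the genes called were higher, against 51.6% here, and the same scaling gave 30.1% against 49.6% for the contrast with H90 below. Division genes were higher in M90 than in M10: 36 of 41 replication genes (median 1.01) and 47 of 47 mitosis genes (median 2.52). Top2a had 6.36, 6.79 and 7.33 CPM in M10 against 38.5, 37.9 and 38.9 CPM in M90, a log2 difference of 2.5 ± 0.096 (adjusted p = 4.29e-21). The largest differences upwards were in Knstrn, Plk1, Racgap1, Ccna2, Aurka and Cdca3, all of mitosis, from 3.08 to 3.31. In the other direction, Cyp24a1 (chr2:170482957-170497145) had 499, 468 and 512 CPM in M10 against 0.653, 0.738 and 0.299 CPM in M90, a log2 difference of -9.77 ± 0.13 (adjusted p = 3.58e-32). Of 13 VDR targets 1 was higher and 10 lower in M90 than in M10, S100g among the lower (-1.84) and Cyp3a11 too (-1.64). Psca, a surface protein, Clca6, of the chloride channel regulator family, Pmp22, Fkbp5, a target of steroid receptors, and Prrg4 were lower by 2.58, 2.49, 2.41, 2.28 and 2.26. Lists that rose over vehicle were lower in M90 than in M10 for villus tip genes (19 of 20), enterocyte genes (25 of 33), goblet genes (19 of 27), ATF4 targets (29 of 36), repair and YAP targets (22 of 29), immediate early genes (24 of 32) and lipid absorption (17 of 32). Apoa4 had 2409.7, 2551 and 2739.8 CPM in M10 and 554, 684 and 647 CPM in M90, and Areg had 566, 532 and 483 and 232, 202 and 207 CPM. Fatty acid oxidation differed the other way: 19 of 30 PPARα targets were higher in M90 and 5 lower, and 17 of 27 mitochondrial oxidation genes were higher and 2 lower.

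Against H90, the human-like pool with the same share, 2532 genes were higher (19.2%) and 2570 lower (19.5%). Without H90 a, which leaves libraries of 1 set only, 4529 genes passed of 5102. PPARα targets were higher in 27 of 30 cases (median 1.06), while 40 of 41 replication and 46 of 47 mitosis genes were lower. Pdk4, Zg16, Vwa1, Acaa1b, Cyp4a10 and Nr0b2 were the most raised, from 1.89 to 2.10, and Olfm4 (-5.16), Slfn9 (-3.08), Myb (-2.82), Fignl1, Mcm5 and Rbp7, a retinoid carrier (-2.56), the most lowered. Mcm5 had 54.2, 51.3 and 48.4 CPM in H90 and 6.93, 9.95 and 8.43 CPM in M90. Against H10 the difference was smallest in number, with 982 genes higher (7.46%) and 993 lower (7.55%) and 154 at 2-fold or more. Without M90 b 1303 genes passed, of 1975, and this contrast is again split by set, 365 genes passing in the set model. Of 41 replication genes 1 was lower and of 47 mitosis genes 1 was higher than in H10, with medians of 0.0088 and 0.021. PPARα targets were higher in 23 of 30 and mitochondrial oxidation genes in 21 of 27. Mt4, a metallothionein, Cyp4a10, Acaa1b, Cyp27a1, Acacb and Apoc2 were the most raised over H10 (2.47, 2.20, 1.72, 1.61, 1.60 and 1.58). Cyp24a1 (-8.47) and Akp3, an alkaline phosphatase (-1.89), were the most lowered with Serpina1e, Mug1, Pzp and Apoe, serum proteins that liver makes and whose calls against vehicle the set model did not keep.

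**Figure D4:**
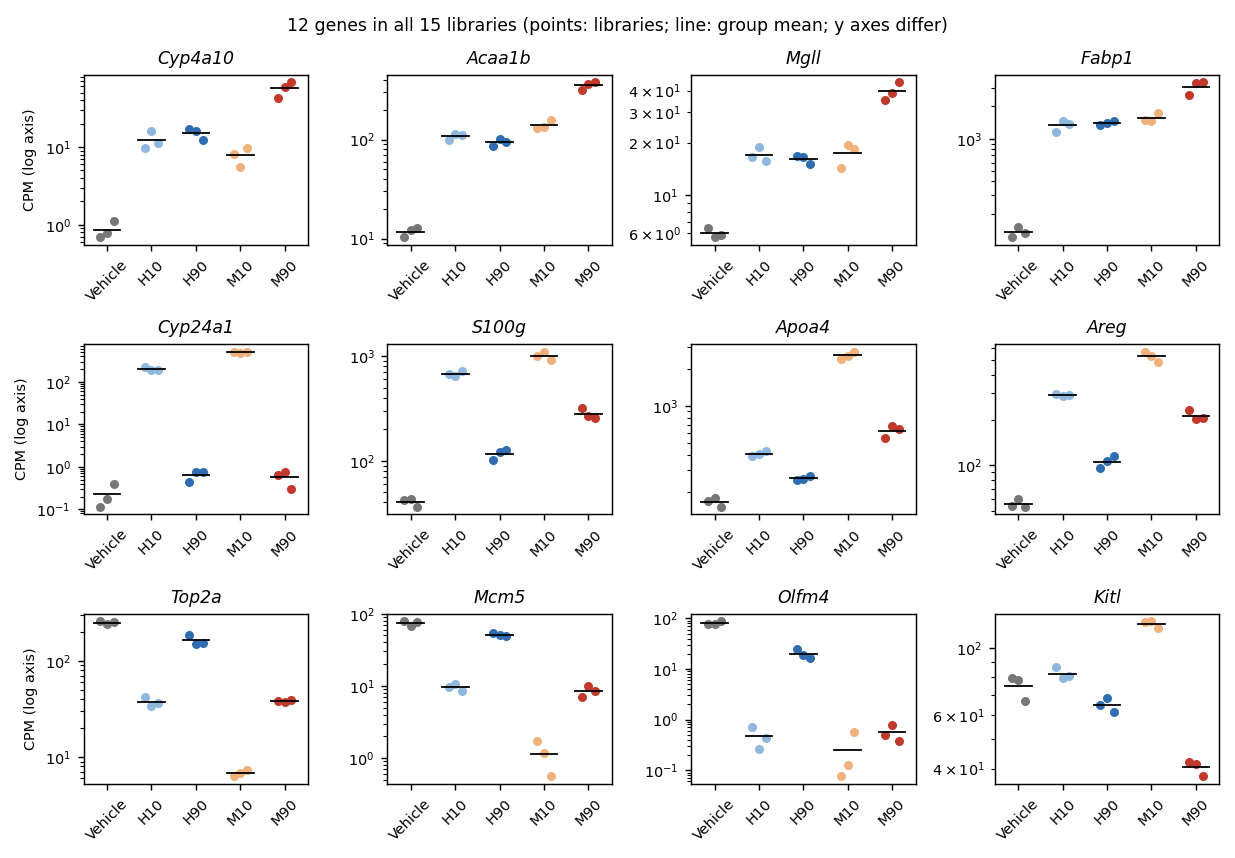
CPM (log axes, which differ between panels) of 12 genes in all 15 libraries, by group; points are libraries and lines group means. Cyp4a10, Acaa1b, Mgll and Fabp1 are highest and Kitl lowest in M90, Cyp24a1 is high only in H10 and M10, and Top2a and Mcm5 are lowest in M10.

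Some genes set M90 apart from all 4 other groups: 299 (2.27%) were higher in M90 than in each of vehicle, H10, H90 and M10, and 127 (0.965%) lower, while 117 passed in the set model. Cyp4a10 averaged 56.6 ± 13.1 CPM in M90, 7.82 ± 2.13 in M10, 15.05 ± 2.52 in H90 and 12.3 ± 3.15 in H10 (mean ± SD, n = 3). Acaa1b had 356 ± 32.0, 141 ± 14.1, 94.6 ± 7.59 and 108 ± 8.07 CPM in that order. Both genes were picked because M90 lay above all 4 other groups without overlap, so this gap follows from the choice. The 6 with the largest smallest difference were Cyp4a10, Acaa1b, Mgll, monoglyceride lipase, Heatr8, Ces1g and Fabp1, and Mgll went from 5.99 ± 0.373 CPM in vehicle to 39.5 ± 4.82 CPM. Lowest in M90 were Dock11, Kitl, the growth factor named stem cell factor, Sema5a, a guidance factor, Mboat1, a lysophospholipid acyltransferase, Mecom, a transcription factor, and Phgdh. Kitl had 40.4 ± 2.28 CPM in M90 against 74.9 ± 7.20 in vehicle, 82.3 ± 3.85 in H10, 120.0 ± 3.56 in M10 and 64.8 ± 3.54 in H90. Sema5a had 3.87 ± 0.470 CPM in M90 and, in the same order of the others, 27.6 ± 2.09, 6.17 ± 1.38, 8.09 ± 1.16 and 13.1 ± 3.98.

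**Figure D5:**
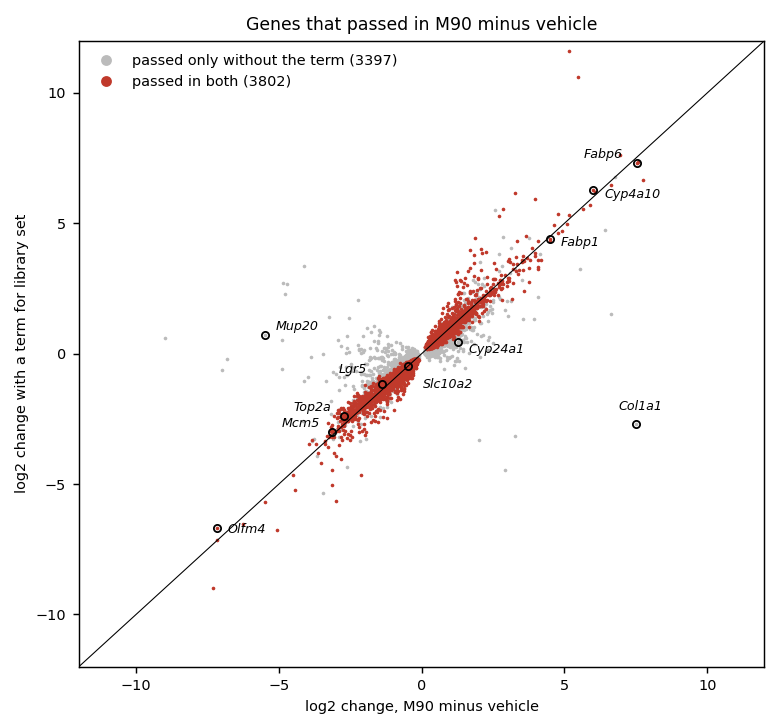
Log2 change in M90 minus vehicle as reported (x axis) and with a term for library set (y axis), for the 7199 genes that passed; red, the 3802 that also passed with the term; the line marks equal values. Fabp6 lies near the line (7.55 and 7.31), as do Cyp4a10, Olfm4 and Top2a, while Mup20 (-5.48 and 0.70) and Col1a1 (7.51 and -2.70) lie far from it.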

How the data were processed

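RNA of the organoids was made into poly-A-selected TruSeq libraries. Per the submitters' processing notes, bcl2fastq 2.17, STAR 2.5.2b and featureCounts 1.5.0-p3 were used, on build mm10 (GRCm38). What the authors deposited is 1 table of unnormalised gene-level read counts per library, by symbol. Annotation, strand and treatment of multimapping reads are not given in the sources used here, so overlapping, antisense and near-identical genes may share reads.

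Genes were filtered by filterByExpr, scaled by TMM and tested two-sided with edgeR 4.0.16 (R 4.3.3, robust quasi-likelihood, 1 model of 5 group means, 10 residual degrees of freedom). A gene counts as changed where its p, adjusted by Benjamini-Hochberg over the 13159 genes, is under 0.05. Standard errors and 95% intervals come from that test and cover the spread between libraries. Alternatives were RLE or library size scaling, other filters, DESeq2 1.42.0, limma-voom (limma 3.58.1), 2 groups alone, the replicate letter as a block, a term for library set (Mup20 above or below 10 plain CPM) and fits without each library in turn. The letters a to c give no pairing: residual correlations between vehicle and M90 ran from -0.0105 to 0.0331 for shared letters and from -0.0415 to 0.0500 for others. Libraries of 1 group differed beyond counting noise (chi-square per degree of freedom 4.78 to 10.3).

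The comparison, its 56 gene lists (1378 genes, 1370 in the files, 17 by a synonym, 1235 tested) and the library sets were chosen with earlier results of these data known. Named genes are those in a fixed list, the 15 largest changes each way against vehicle and 6 against other groups (means of at least 5 CPM, ranges apart, no unnamed or other-tissue genes), and up to 4 with the smallest p, 4 with the largest change and 3 against the direction of each list. Acot12, Abcb11 and the 2 immune markers at 0 are named outside that rule, after their values were seen. Some genes that this rule names are not reported here. Symbols follow an older nomenclature, in which Clca1 and Clca4, counted in 2 lists, may be other genes. Python 3.11.15 and matplotlib 3.10.9 drew the figures.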

Additional observations from a re-analysis of the deposited data

Results flagged for a closer look

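Among the genes named here, 6 passed in opposite directions against vehicle in M90 and in M10, with the difference between the pools passing too (edgeR quasi-likelihood test), and 2 of them did so in M90 and in H10 as well. Slc10a2, the bile acid importer, had a log2 change of -0.47 in M90 and 1.20 in M10, a difference of -1.67 (adjusted p = 1.66e-07). Its levels were 56.2, 71.2 and 57.0 CPM in vehicle, 145, 161 and 117 CPM in M10 and 50.1, 41.0 and 42.9 CPM in M90. The fall against vehicle did not pass in the set model (adjusted p = 0.227). Clca6 had -0.57 in M90 and 1.93 in M10, a difference of -2.49 (adjusted p = 4.47e-12), with 52.1, 61.0 and 53.3 CPM in vehicle, 228, 233 and 173 CPM in M10 and 38.0, 35.6 and 39.1 CPM in M90. Kitl had -0.89 in M90 and 0.68 in M10, a difference of -1.57 (adjusted p = 3.83e-19), with 79.6, 78.6 and 66.6 CPM in vehicle, 122, 122 and 116 CPM in M10 and 42.1, 41.3 and 37.8 CPM in M90. No ranges of the 3 groups overlapped in Kitl or Clca6. Smaller differences were found in 3 genes. Scin had -0.28 in M90, 0.70 in M10 and 0.39 in H10, so that M90 lay -0.98 from M10 (adjusted p = 1.80e-18) and -0.67 from H10 (adjusted p = 6.27e-13). Enpep had -0.27 in M90 and 0.26 in M10, a difference of -0.53 (adjusted p = 2.54e-13). Ppard had -0.20 in M90, 0.17 in M10 and 0.27 in H10, with differences of -0.36 (adjusted p = 1.35e-06) and -0.47 (adjusted p = 6.32e-08), and its fall against vehicle did not pass in the set model (adjusted p = 0.640). The changes against vehicle share the vehicle libraries, while M90 and M10 lie in 1 library set and M90 and H10 in different ones.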

How the results depend on the processing

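Between M90 and vehicle, the number of genes called stayed within 1.5 times of 7199 under each alternative but the term for library set, which gave 3958. That term also gave 365 genes against 1975 for M90 minus H10, and 117 against 426 for genes apart from all 4 groups. M90 minus H10 fitted on its 2 groups alone gave 2991. Leaving out each library in turn gave 6432 to 6607 genes for M90 minus vehicle and 1303 to 1618 for M90 minus H10. With the replicate block 7213 genes were called against vehicle and every named call was kept. Same-lettered libraries did not deviate together, and each call held under RLE scaling and both other filters too. Of 240 named genes called against vehicle, library size scaling lost 2 calls (Abcc3 and Nop10) and the set term 21. Signs turned with the set term in Apoe (0.26), C3 (0.24), Col1a1 (-2.70), Kng1 (0.22), Mup20 (0.70), Pzp (0.052) and Serpina1e (0.17), none of which passed there. Library size scaling turned 7 lists towards falls: members higher became 6 for ER chaperones, 3 for FXR signalling, 11 for mucosal defence, 4 for epithelial markers, 3 for glucocorticoid genes, 5 for p53 targets and 6 for tight junctions. The cause of these shifts was not tested. Depth limits genes near 3 counts, such as Cyp24a1 in vehicle and M90.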

Other observations

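Energy and clock genes not described above also moved. Of 48 respiratory chain genes 38 rose and 1 fell (median log2 0.33), 23 and 1 in the set model. Cycs, cytochrome c, had 65.6, 65.8 and 67.3 CPM in vehicle and 111, 118 and 119.8 CPM in M90, and Uqcrq, of complex III, rose by 0.62. Of 27 glycolysis and hypoxia genes 21 rose and 1 fell, 10 and 1 in the set model. Vegfa, the endothelial growth factor, had 66.9, 89.9 and 78.0 CPM in vehicle and 330.2, 268 and 229 CPM in M90, a rise of 1.81. In the clock list 9 of 18 rose and 2 fell, and the set model called 6, all as rises: the repressors Per3 and Nr1d1 and the output gene Dbp rose by 0.98, 1.02 and 0.93, and Arntl, which they oppose, had -0.76, a call lost there (adjusted p = 0.0505). The time of harvest of each group is not given in the labels.

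Of 25 metal genes 16 rose and 3 fell, 11 and 1 in the set model. Mt1, a metallothionein that binds zinc, had 1234, 1261 and 1438 CPM in vehicle and 2811, 2768 and 2746 CPM in M90. It rose by 1.08 and Mt2 by 1.06, and Slc30a1, a zinc exporter, rose by 1.01. Of 20 tight junction genes 7 rose and 5 fell, 5 and 2 in the set model and 6 and 7 with library size scaling, shares near the 26.2% and 28.5% of all tested genes. Cldn4 and Cldn3, sealing claudins, rose by 0.98 and 0.70. Sgk1, a kinase induced by glucocorticoids, had 7.46, 7.75 and 7.39 CPM in vehicle and 28.9, 31.1 and 29.5 CPM in M90, a rise of 1.98, within a list of 12 where 5 rose and 4 fell, 2 and 2 in the set model and 3 and 5 with library size scaling. Neat1, a nuclear long RNA, had 262, 320.2 and 326 CPM in vehicle and 1116, 1152 and 951 CPM in M90, a rise of 1.82.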
